A study of Homo sapiens with 2 samples.

Results

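The chromatin accessibility of promoters was followed along chromosome 8 of CAMA-1, an established line of luminal, estrogen receptor-positive breast cancer cells. Its members were peaks of ATAC-seq, which maps open chromatin with a transposase, that lay on chromosome 8 within 1 kb of a transcription start site (TSS) of a protein-coding gene in GENCODE release 44. There were 1322 such peaks in replicate 1 and 1349 in replicate 2, of 13016 and 13849 peaks on the chromosome and of 245736 and 259745 peaks in all. For each gene the strongest of these peaks was selected on its measured fold enrichment, so that heights within the chromosome are given as a description and without a test. The 2 biological replicates held 50000 cells each, were cultured as adherent cells without treatment, and form a single condition. No other condition or cell line was analysed here. A p-value over genes or bins would treat them as replicates, which they are not.

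The Tn5 transposase cuts and tags DNA where chromatin is open, and the number of reads that pile up at a promoter reflects how many copies of it in the sample were accessible. Active promoters are kept free of nucleosomes around the TSS, and promoters rich in CpG dinucleotides tend to be open in many cell types, whereas promoters of tissue-restricted genes are often closed outside their tissue. Chromosome 8 is known in breast cancer for frequent losses of the outer short arm (8p) and for frequent gains of the inner short arm around FGFR1 and of the long arm (8q) around MYC. The number of copies of a region per cell and the accessibility of each copy cannot be told apart from peak heights, and no measurement of copy number was used.

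Peak height was the number of stacked reads at the highest base of a peak. It was recovered from the deposited fold enrichment, which rose in steps of 0.230 in replicate 1 and 0.221 in replicate 2 over backgrounds of 3.35 and 3.52 stacked reads. The lowest peak of either list had a height of 11, so that weaker signal was not detectable, and the lists give no total read count. Of 702 protein-coding genes on chromosome 8, 544 had a TSS peak in both replicates, 7 in replicate 1 only, 6 in replicate 2 only, and 145 in neither. A peak was thus found at 78.5% and 78.3% of genes in replicates 1 and 2, against 81.3% and 81.8% on all autosomes. Neighbouring genes could share a peak, and the genes with a peak had 496 distinct strongest peaks in replicate 1 and 493 in replicate 2. Heights of the 544 genes had a Pearson correlation of 0.984 and a Spearman correlation of 0.987 between replicates on the log2 scale, across genes of 1 chromosome, which are not independent. The log2 ratio of replicate 2 to replicate 1 had a median of 0.11 and an SD of 0.24, and 8 genes differed at least 1.5 times.

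At the edge of the distance limit, the farthest peak inside it lay 997 bp from a TSS of ARFGEF1 in replicate 1, with a height of 39, and 1000 bp from a TSS of NSD3 in replicate 2, with a height of 31. The nearest peak outside lay 1001 bp from a TSS of SPIDR in replicate 1, with a height of 34, and 1006 bp from a TSS of ZNF395 in replicate 2, with a height of 14. Peaks on either side of this limit were alike in height. Peaks between 500 and 1000 bp from a TSS had a median height of 29 and 30 in replicates 1 and 2, and those between 1000 and 1500 bp away had 30 and 29. Peaks that covered a TSS had 184 and 197. Some genes still had their strongest peak near the limit, such as DLGAP2 (938 and 976 bp) and EXT1 (838 and 909 bp).

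The identity of the cells was checked at markers of breast epithelium and of other cells. All 9 luminal markers had a TSS peak in both replicates, with the lowest heights at ESR1, the estrogen receptor (135 and 146 in replicates 1 and 2), and the highest at KRT8, a luminal keratin (608 and 662). Of 5 blood markers, PTPRC, CD3E, SPI1 and HBB had no TSS peak in either replicate, whereas CD14 had 207 and 237. All 6 mesenchymal markers had a peak, with heights between 48 and 318, and 53 and 303, and so did the 3 basal markers, with heights between 22 and 123, and 28 and 114. A TSS peak does not show that a gene was transcribed, and the part of other cells in the heights was not tested.

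The short arm was divided into a low outer stretch and a high inner stretch, and most of the long arm lay above the genome. Over all chromosome 8 genes with a peak the median height was 256 in replicate 1 and 279 in replicate 2 (267.5 ± 16.3, SD, n = 2), against 224 and 239 over the other autosomes. The ratio was 1.16 ± 0.017 (SD, n = 2), and chromosome 8 ranked 3 of 23 chromosomes, after 5 and 16. On 8p, from 0 to 45 Mb, the median was 156 and 155, and on 8q it was 325.5 and 359. The 8q median was 2.201 ± 0.162 times the 8p median (SD, n = 2), a difference larger than the spread between replicates. The median of the whole chromosome thus joined a low arm and a high arm.

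**Figure D1:**
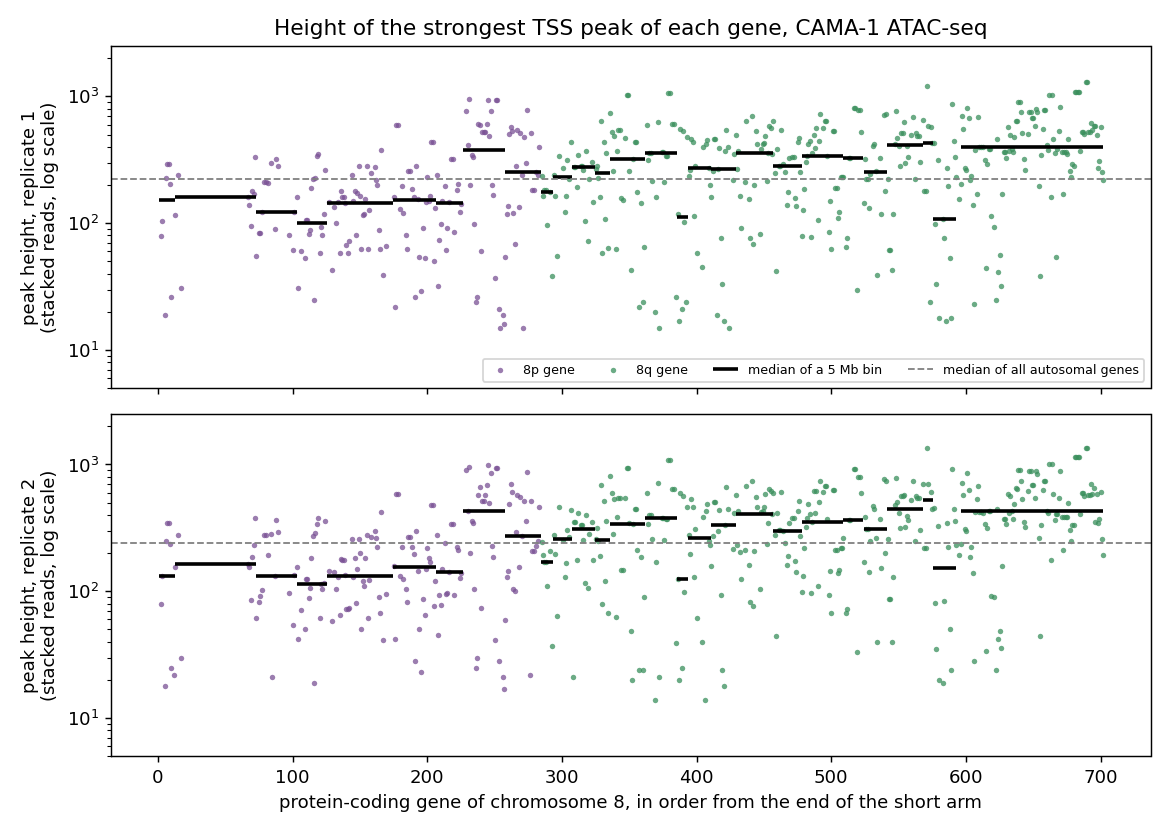
Height of the strongest TSS peak of each chromosome 8 gene (vertical log axis, stacked reads) in gene order from the end of 8p (horizontal axis), with replicate 1 above and replicate 2 below. Points are genes (8p purple, 8q green), black bars are medians of 5 Mb bins with at least 5 genes with a peak, and the dashed line is the median of all autosomal genes (224 and 240). The bars of the outer 8p all lie below the dashed line in both panels and the next bars, of the inner 8p, lie above it.

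Steps were located with medians in fixed bins of 5 Mb from position 0. Of 30 bins, 27 had at least 5 genes with a peak in each replicate. A bin was called high or low where its median was at least 1.5 times above or below the median of all autosomal genes, 224 and 240, in both replicates. Of the 27 bins, 6 were high (22.2%), while 8.83% of autosomal bins were, and 6 were low (22.2%), while 12.3% of autosomal bins were. Shares as large occurred on a few other chromosomes. On chromosome 5, 8 of 34 bins were high, and 10 of 31 were low on chromosome 6, 7 of 25 on chromosome 12 and 6 of 26 on chromosome 11. The high bins were those from 35, 70, 90, 120, 125 and 140 Mb, and the low bins were those from 10, 15, 20, 30, 75 and 130 Mb. Closest to the limit among high bins was that from 70 to 75 Mb, at 1.61 and 1.575 times the autosomal median, and just outside it lay the bin from 100 to 105 Mb, at 1.5 and 1.475 times. Among low bins the closest was that from 30 to 35 Mb, at 0.650 and 0.588 times, and the bin from 25 to 30 Mb lay just outside, at 0.679 and 0.646 times.

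Among 23 pairs of neighbouring bins of the same arm, 5 (21.7%) differed at least 1.5 times in the same direction in both replicates. Over all autosomes 25.4% of such pairs did, so that the number of steps on chromosome 8 was near the background and is no result about this chromosome. The first step was a rise at 35 Mb, with medians of 145.5 and 141 before it and 380.5 and 433 after it in replicates 1 and 2, a ratio of 2.84 ± 0.322 (SD, n = 2). A fall followed at 40 Mb, to 253 and 275, or 0.650 ± 0.0211 times. At 75 Mb the median fell from 361 and 378 to 111 and 125, and at 80 Mb it rose again to 273 and 262. The last step was a fall at 130 Mb, from 430 and 527 to 108 and 153. With at least 10 genes with a peak per bin, 2 steps were counted, since the bins from 75 and 125 Mb then had too few genes.

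**Figure D2:**
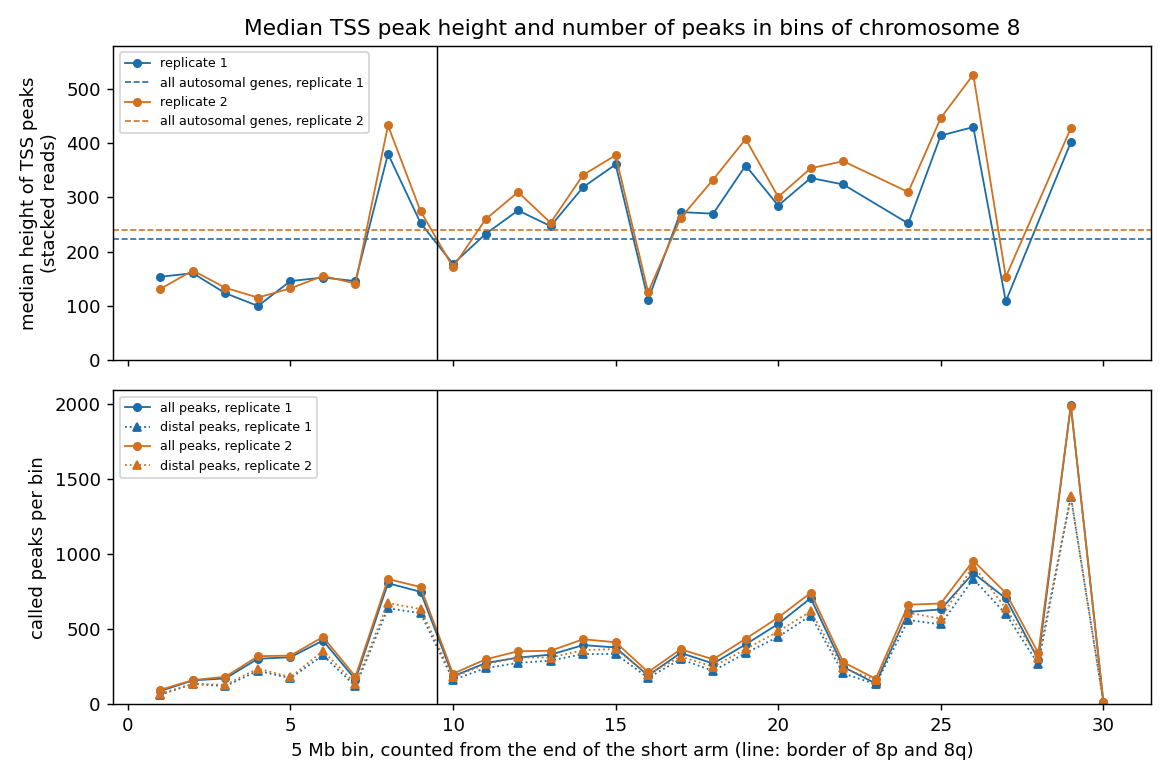
Upper panel, median height of TSS peaks (stacked reads) per 5 Mb bin, numbered from the end of 8p, in replicate 1 (blue) and replicate 2 (orange), with the autosomal medians as dashed lines and bins with fewer than 5 genes with a peak left out. Lower panel, number of called peaks per bin, all (circles) and more than 3 kb from a coding TSS (triangles); the black line parts 8p and 8q. The rise from bin 7 to bin 8 appears in both panels, whereas bin 27 has a low median with 705 and 741 peaks.

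The rise at 35 Mb also divided the whole arm. All 7 bins from 0 to 35 Mb had medians below the autosomal median in both replicates, between 99.5 and 160 in replicate 1 and between 115 and 165 in replicate 2. When each arm was divided at the bin edge that left the smallest summed deviation of log2 height from the medians of both sides, 8p was divided at 35 Mb, in each replicate alone as well. The mean deviation at 35 Mb was 0.990, against 1.019 to 1.056 at the other edges. Outside the edge (0 to 35 Mb, outer 8p) the median was 144 and 137 over 130 and 132 genes, and inside it (35 to 45 Mb, inner 8p) it was 296 and 351 over 51 and 50 genes. The inner median was 2.31 ± 0.358 times the outer median (SD, n = 2). In the same division of 39 autosomal arms, the larger over the smaller median was greatest on 15q (2.79 ± 0.196), with 8p at rank 2. Its 7 bins below the autosomal median in a row were matched or exceeded on other arms, with 11 in a row on 6q.

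The edge fell in a stretch of 4.13 Mb in which no gene had a TSS peak, between RNF122 at 33567128 and ZNF703 at 37695782 (hg38, most 5′ TSS). Of the genes before it, MAK16, a ribosome biogenesis factor, had heights of 204 and 213 in replicates 1 and 2. TTI2, a cochaperone of large kinases, had 123 and 127, and RNF122, a ubiquitin ligase, had 143 and 139. All 3 lay below the autosomal median in both replicates. After the stretch, ZNF703, a transcriptional corepressor of luminal cells, had 772 and 897. ERLIN2, an endoplasmic reticulum protein of lipid rafts, had 415 and 433. PLPBP, which binds vitamin B6, had 946 and 951. UNC5D and KCNU1, the coding genes of the 35 Mb bin that precede ZNF703, had no TSS peak in either replicate.

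The highest promoters of 8p lay in a cluster within the bin from 35 to 40 Mb. NSD3, a histone lysine methyltransferase, had 935 and 983 (959 ± 33.9, SD, n = 2), at a peak that covered chr8:38380036-38383530 of hg38 in replicate 1 and overlapped its TSS. PLPBP followed with 948.5 ± 3.54. ADAM9, a membrane metalloprotease, and TM2D2, a transmembrane protein, shared a divergent promoter and a peak of 943 and 931. These heights were at percentile 97.1 or above among chromosome 8 genes, and ZNF703 (834.5 ± 88.4) was at percentile 95.3. FGFR1, a fibroblast growth factor receptor of the same bin, had 774 and 856.

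The same bin held very low promoters. Of the lowest 5 genes of 8p with a peak in both replicates, IDO2 (16 and 17) and IDO1 (19 and 21), both enzymes of tryptophan breakdown, and ADAM32 (21 and 28), of a family with roles in the testis, lay there. DLGAP2, a scaffold protein of synapses (19 and 18), and FGL1, a protein secreted by the liver (25 and 19), were the other two and lay in the outer 8p. IDO1 took different peaks in replicates 1 and 2, 557 and 984 bp from a TSS, and the peak of DLGAP2 lay 938 and 976 bp from one. None of these 5 genes had a strongest peak that covered its most 5′ TSS. Those of ADAM32 and FGL1 covered another annotated TSS. ADAM2 had no TSS peak, and ADAM18 had a peak of 15 in replicate 1 only. In that bin the lower quartile was 54.3 and 89.5 and the upper quartile 603 and 675, so that the range between quartiles included the autosomal median.

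Few genes of the outer 8p passed the autosomal median. In replicate 1, 29 of 130 genes with a peak did (22.3%), and in replicate 2, 32 of 132 (24.2%), against 30 of 51 (58.8%) and 29 of 50 (58.0%) in the inner 8p. Of all autosomal genes with a peak, 28.5% and 28.3% were at least 1.5 times above the autosomal median in replicates 1 and 2, and 32.5% and 32.8% were at least 1.5 times below it. In the outer 8p, 5.38% and 6.06% were above by this limit (7 and 8 genes) and 55.4% and 59.1% below. In the inner 8p, 47.1% and 46.0% were above (24 and 23 genes), and 16 of 51 and 15 of 50 genes were below. The highest promoter of the outer 8p was shared by KCTD9 and CDCA2, a regulator of mitotic phosphatase activity, with 596 and 586. Next to it among genes of the bin from 25 Mb stood INTS9, of the Integrator complex, and HMBOX1, with a shared peak of 436 and 479; both pairs were named after their values were seen.

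Outer 8p genes also lacked a TSS peak more often. A peak was found at 57.5% and 58.4% of 226 genes of the outer 8p, and at 87.9% and 86.2% of 58 genes of the inner 8p. The bin from 5 to 10 Mb had 60 genes, of which 9 had a peak in each replicate. The bins from 5 and 10 Mb hold the defensins, antimicrobial peptides, and other multi-copy families. None of 6 DEFA, 6 USP17L, 19 FAM90A and 3 ZNF705 genes had a peak, and 1 of 20 DEFB genes did, in both replicates. Reads from near-identical copies cannot be placed with certainty, so these values are uncertain. Without these 54 genes, 129 and 131 of 172 outer 8p genes had a peak, or 75% and 76.2%. Over all genes of the autosomes, with such families kept, the shares were 81.3% and 81.8%.

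Restriction to CpG-rich promoters widened the difference on 8p. A promoter was taken as CpG-rich where the 1000 bp around any TSS had a ratio of observed to expected CpG of at least 0.6 and a GC content of at least 50%. On chromosome 8, 510 of 702 genes (72.7%) had such a promoter, and 70.6% on the autosomes. The share was 58.0% in the outer 8p and 69.0% in the inner 8p. Medians of CpG-rich genes were 148 and 145 in the outer 8p, 487 and 493 in the inner 8p, and 247 and 265 over all autosomes. The inner over the outer median was 3.35 ± 0.0774 (SD, n = 2) among them. Among CpG-rich genes, too, the outer 8p lay below the autosomal level. A gene counted as CpG-rich for any of its TSSs, and its strongest peak could lie at another one. The part of promoter sequence in the heights was not tested. Within the inner 8p, CpG-rich genes had a median of 525 and 517 in the bin from 35 Mb and of 346.5 and 412.5 in the bin from 40 Mb.

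On 8q, the division was less sharp. The smallest deviation was at 140 Mb, in each replicate alone as well, but the mean deviation was 0.976 there and 0.979 to 0.991 at the other edges. The median was 282 and 310 from 45 to 140 Mb (inner 8q, 267 and 265 genes with a peak) and 402 and 427 beyond (outer 8q, 103 genes in each). The ratio was 1.40 ± 0.034 (SD, n = 2), which placed 8q at rank 15 of 39 arms. When the edge could fall between any pair of genes it lay between GLI4 and ZNF696, near 143.267 Mb, and the ratio was 1.80. Other settings moved the edge to 65, 120 or 122.5 Mb, so that a single place of a step on 8q was not found.

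The 3 genes before 140 Mb with a peak were spread over several Mb. KHDRBS3, an RNA-binding protein, had 230 and 230. COL22A1, a collagen, had 154 and 192, and KCNK9, a potassium channel, had 204 and 236. All lay within 1.5 times of the autosomal median. Beyond 140 Mb, TRAPPC9, of a vesicle tethering complex, had 697 and 719. CHRAC1, a histone-fold protein of a chromatin remodelling complex, had 554 and 575, and AGO2, the slicer of RNA interference, had 272 and 307.

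The highest promoter of the chromosome lay in the outer 8q. RECQL4, a DNA helicase, and LRRC14 shared a peak of 1301 and 1352 (1326.5 ± 36.1, SD, n = 2), which spanned 5176 bp in replicate 1. ZFTRAF1 and the unnamed gene ENSG00000291316 shared a peak of 1091 and 1142. Between these in height stood TRIB1, a pseudokinase that steers protein degradation, at 125 to 130 Mb, with 1209 and 1345 (1277 ± 96.2). In the outer 8q, 82.5% and 84.5% of genes with a peak passed the autosomal median, and 97.2% of 106 genes had a peak in each replicate.

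Wide peaks limit the assignment of height to a gene in the outer 8q. The median width of strongest peaks was 2280 and 2143 bp there, against 785.5 and 832.5 bp in the outer 8p. A peak is the stretch above a threshold, so that its width is not independent of its height. At HSF1, the master regulator of the heat shock response, the strongest peak was 15937 bp wide in replicate 1. SCX, a transcription factor of tendons, had 54 in replicate 1 and 406 in replicate 2, where its strongest peak was a single peak of chr8:144256801-144266225 that was also that of BOP1. ADGRB1, with 171 and 535, and RPL8, with 585 and 349, also took different peaks in the replicates; these 3 genes were named after their values were seen.

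Very low promoters occurred along the whole 8q. The lowest with a peak in both replicates were TRPA1, a sensory ion channel (20 and 14), SLC7A13, a transporter of amino acids (17 and 18), SBSPON, a secreted protein (15 and 21), ZFHX4, a homeodomain factor (17 and 20), and OC90, a protein of the inner ear (18 and 20). Their exact Poisson 95% intervals, which cover counting error only, overlapped, so that their order is not resolved. TRPA1, SBSPON and ZFHX4 each had a CpG-rich TSS. The peaks of TRPA1 covered its most 5′ TSS. Those of SBSPON and ZFHX4 lay away from the most 5′ TSS and were different peaks in the replicates.

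The low bins of 8q held genes with widely spread heights. In replicates 1 and 2, 8 and 7 genes had a peak in the bin from 75 Mb, and 15 and 14 in that from 130 Mb. The high bin from 125 Mb had 7 and 6. In the bin from 75 to 80 Mb all 8 genes had CpG-rich promoters. PEX2, needed to form peroxisomes (556 and 591), ZC2HC1A (533 and 568) and HEY1, a Notch target (477 and 463), were well above the autosomal median. HNF4G, a nuclear receptor (119 and 125), and IL7, a cytokine (103 and 98), were below it. ZFHX4, PKIA (21 and 25) and STMN2, a neuronal tubulin regulator (24 in replicate 1, no peak in replicate 2), stood near the floor. The heights thus fell into separate levels, and the median of 111 and 125 lay at the level of HNF4G and IL7.

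In the bin from 130 to 135 Mb, promoters of both kinds were mixed. NDRG1, a stress-responsive gene, had 872 and 915, and CYRIB, a regulator of the actin cytoskeleton, had 429 and 453. ASAP1, an Arf GTPase-activating protein, had 98 and 81. KCNQ3, a potassium channel, had 108 in replicate 1, equal to the bin median there, but 19 in replicate 2, so that this value did not repeat. Medians of the 10 CpG-rich genes of this bin were 293.5 and 335, against 108 and 153 over all its genes with a peak. The 5 CpG-rich genes of the bin before it had 571 and 608. The fall at 130 Mb was thus smaller among CpG-rich genes.

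Genes of chromosome 8 known from breast cancer, 47 in all, were described by stretch. In the outer 8p, 6 of 7 had a peak, with a median of 144.5 and 143, close to the 144 and 137 of all genes there. None was at least 1.5 times above the autosomal median, beside 5.38% and 6.06% of all genes with a peak there. At least 1.5 times below it were 3 and 4 of the 6, as were 55.4% and 59.1% of all genes with a peak there. TNFRSF10B, a death receptor, had 126 and 123, and PPP2R2A, a subunit of a protein phosphatase, had 129 and 131. DLC1, a GTPase-activating protein, had 160 and 155, and NRG1, a ligand of ERBB receptors, had 85 and 94. Neither gene was read at its most 5′ TSS. The DLC1 peaks covered another annotated TSS, and the NRG1 peaks lay 25 and 151 bp from another. MTUS1, a microtubule-associated protein, was the highest, with 224 and 273. TUSC3, a subunit of oligosaccharyltransferase, had no peak in either replicate, although its promoter was CpG-rich. BNIP3L, a mitophagy receptor, had 196 and 224.

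In the inner 8p all 14 listed genes had a peak, with a median of 525 and 546, above the 296 and 351 of all genes there. At least 1.5 times above the autosomal median were 11 in replicate 1 and 10 in replicate 2, beside 47.1% and 46.0% of inner 8p genes with a peak. None was 1.5 times below it, beside 31.4% and 30% of those genes. ASH2L, a core part of histone methyltransferases, had 597 and 659, and PLPP5, a lipid phosphatase, had 602 and 690. DDHD2, a phospholipase, had 522 and 575, and LSM1, of messenger RNA decay, and BAG4, a cochaperone, shared a peak of 525 and 517. BRF2, of the RNA polymerase III machinery, had 346 and 356, and RAB11FIP1, of endosome recycling, had 333 and 346. The lower end was held by TACC1, a centrosomal protein (201 and 229), and by KAT6A, a histone acetyltransferase (285 and 295). Peaks of DDHD2 and TACC1 covered another annotated TSS of the gene, not the most 5′ TSS. As the list holds genes chosen for their part in this disease, it is no random sample of the stretch.

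**Figure D3:**
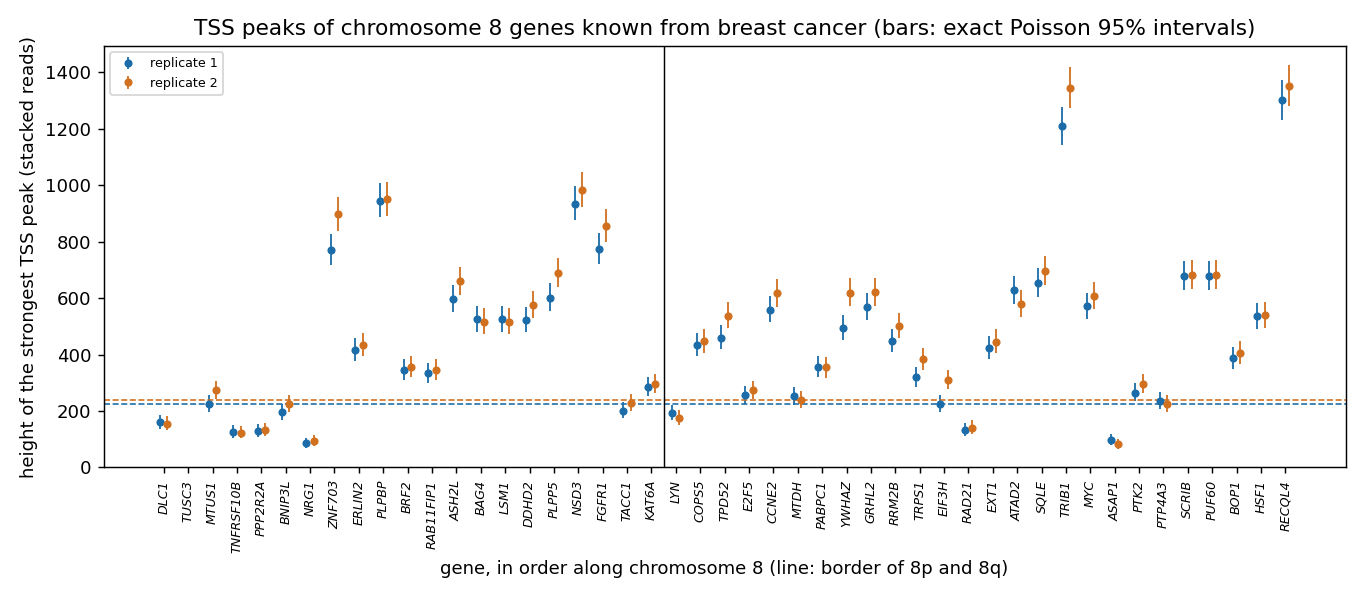
Height of the strongest TSS peak (vertical axis, stacked reads) of the 47 listed genes in order along chromosome 8 (horizontal axis), in replicate 1 (blue) and replicate 2 (orange), with exact Poisson 95% intervals as bars and the autosomal medians as dashed lines. The 7 genes from DLC1 to NRG1 stay at or below 273, the genes from ZNF703 to FGFR1 lie at 333 or above, and 8q genes range from 81 to 1352; TUSC3 has no peak.

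On 8q up to 100 Mb, all 6 listed genes had a peak, with a median of 345 and 360. CCNE2, a cyclin of S-phase entry, had 559 and 617, TPD52, a protein of vesicle traffic, had 460 and 538, and COPS5, of the COP9 signalosome, had 434 and 447. Peaks of TPD52 and COPS5 covered another annotated TSS of the gene, not the most 5′ TSS. E2F5, a cell cycle transcription factor (256 and 273), MTDH, a membrane protein (252 and 239), and LYN, a tyrosine kinase (193 and 176), were within 1.5 times of the autosomal median. Beyond 100 Mb all 20 listed genes had a peak, with a median of 471 and 521 against 365 and 406 over all genes there. At least 1.5 times above the autosomal median were 14 of 20 in each replicate, beside 55.6% and 58.5% of all genes with a peak there. ASAP1 and RAD21, a cohesin subunit (132 and 141), were at least 1.5 times below it. These were 2 of 20, beside 18.4% and 17.6% of all genes with a peak there.

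The listed genes beyond 100 Mb ranged more widely than those of the inner 8p. GRHL2, an epithelial transcription factor, had 568 and 621, and YWHAZ, an adaptor protein, had 494 and 619. SQLE, an enzyme of cholesterol synthesis, had 653 and 696, and ATAD2, a bromodomain protein, had 627 and 579. Near 125 to 130 Mb, MYC had 571 and 608, and its neighbour TRIB1 stood higher. RRM2B, a ribonucleotide reductase subunit, had 448 and 502, EXT1, of heparan sulfate synthesis, had 424 and 446, and PABPC1, a poly(A)-binding protein, had 356 and 354. TRPS1, a GATA-type repressor, had 319 and 383, and EIF3H, of translation initiation, had 225 and 310. Peaks of ATAD2 and TRPS1 covered another annotated TSS of the gene, not the most 5′ TSS, and those of EXT1 covered no TSS. In the outer 8q, PUF60, a splicing factor, and SCRIB, a polarity protein, shared a wide peak of 677 and 683, HSF1 had 536 and 540, and BOP1, of ribosome assembly, had 386 and 406. The peaks taken for PUF60, HSF1 and BOP1 covered another annotated TSS of the gene and did not reach the most 5′ TSS. These heights are thus not those of the most 5′ promoters. PTK2, the focal adhesion kinase (265 and 296), and PTP4A3, a phosphatase (234 and 225), stood near the autosomal median.

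The number of peaks per bin moved with the height of TSS peaks. Across the 27 bins, which share library and depth, the Spearman correlation of the median height with the number of all called peaks was 0.594 in replicate 1 and 0.650 in replicate 2. It was 0.636 and 0.714 with the number of distal peaks, those more than 3 kb from a coding TSS, which the choice of members did not use. Peaks are called where the same signal passes a threshold, so that count and height are not separate measures. The number of genes per bin (0.124 and 0.133) and the share of CpG-rich genes (0.009 and −0.094) went little with height. The median height of CpG-rich genes alone followed that of all genes (0.877 and 0.930).

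At the edge on 8p, the peak count changed as well. The outer 8p had 46.4 and 49.0 peaks per Mb and the inner 8p 155.5 and 161.5, a ratio of 3.32 ± 0.042 (SD, n = 2). Distal peaks rose from 33.2 and 35.6 per Mb to 124.6 and 130.8, a ratio of 3.72 ± 0.0581. Distal peaks of height 100 or more rose from 4.31 and 4.86 per Mb to 22.1 and 24.6, a ratio of 5.09 ± 0.0408. All 3 ratios were well beyond the spread between replicates. The inner 8q had 82.4 and 89.6 peaks per Mb and the outer 8q 391 and 390.

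Heights of distal peaks followed this pattern only at the upper end. Their median was 36 and 34 in the outer 8p and 28 and 28 in the inner 8p, the opposite order to TSS peaks. The 90th percentile was 119 and 118 in the outer 8p and 181.5 and 184.3 in the inner 8p, a ratio of 1.54 ± 0.0259 (SD, n = 2). Across bins the correlation of the TSS median with the distal median was −0.243 and −0.214, and it turned positive with the 50000 strongest peaks (mean 0.589) and at a −log10 q of at least 10 (0.191). The correlation with the distal 90th percentile was 0.481 and 0.607. Of distal peaks, 13.0% and 13.6% in the outer 8p, and 17.7% and 18.8% in the inner 8p, had a height of 100 or more. The median of called peaks includes those just over the threshold, and their number differed between the stretches.

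TSS peaks of long noncoding RNA genes, taken among distal peaks, showed less of a difference. Their median was 48 and 61 in the outer 8p (43 and 38 genes) and 61 and 62.5 in the inner 8p (33 and 34 genes), a ratio of 1.15 ± 0.174 (SD, n = 2). This difference was within the spread between replicates. In the inner and outer 8q the medians were 58.5 and 59, and 67 and 64. The rise at 35 Mb was thus seen in coding TSS peaks, in the number of distal peaks and in the upper range of distal heights, and was not resolved in noncoding TSS peaks.

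**Figure D4:**
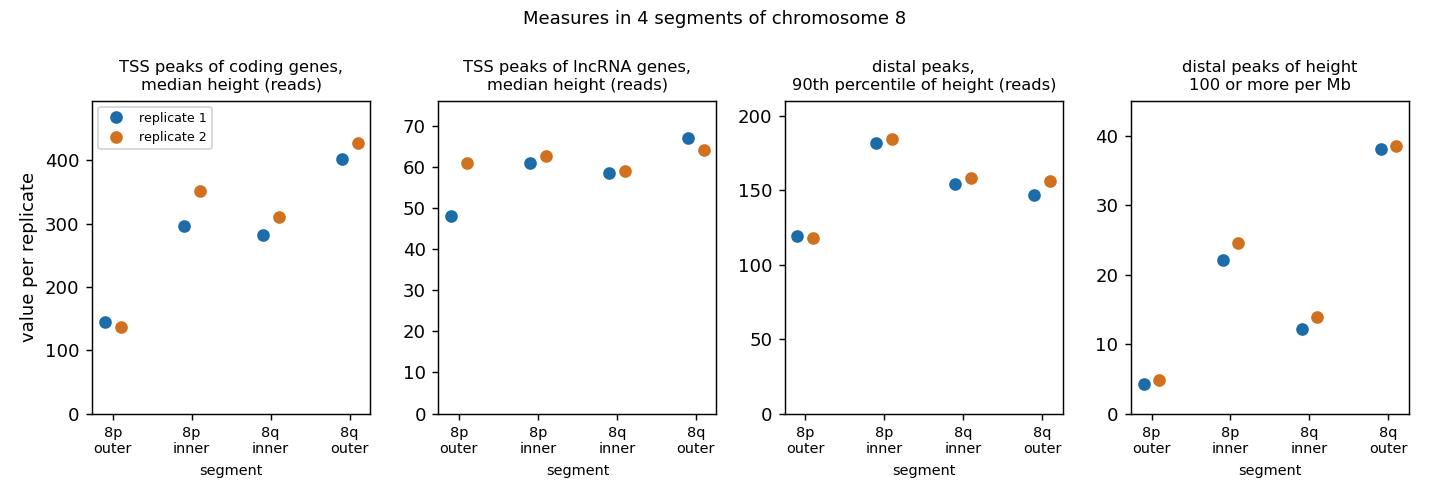
Values of replicate 1 (blue) and replicate 2 (orange) in the outer 8p (0 to 35 Mb), inner 8p (35 to 45 Mb), inner 8q (45 to 140 Mb) and outer 8q (beyond 140 Mb), for the median height of coding TSS peaks, the median height of long noncoding RNA TSS peaks, the 90th percentile of distal peak height, and the number of distal peaks of height 100 or more per Mb. In both replicates the outer 8p is lowest in the panels of coding TSS peaks and of distal peaks, and noncoding TSS peaks lie between 48 and 67 in all 4 stretches.

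Counts and heights parted in some bins of 8q. The bin from 140 to 145 Mb had the most peaks, 1992 and 1987, and 105 genes, with a median height of 402 and 428. The bin from 125 to 130 Mb had a similar or larger median, 430 and 527, with 874 and 956 peaks and 7 genes. The bin from 130 to 135 Mb had 705 and 741 peaks at a low median of 108 and 153, and its 90th percentile of distal height, 176 and 177, was near that of the inner 8p. The bin from 75 to 80 Mb was low in both, with 191 and 214 peaks and a distal 90th percentile of 97.5 and 119. The low median at 75 Mb thus came with few peaks, whereas that at 130 Mb did not.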

How the data were processed

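CAMA-1 ATAC-seq peak lists of 2 biological replicates, a single condition, were analysed. According to the submitters' processing notes, the authors used Trim Galore 0.6.5, Bowtie2 2.3.5.1 and MACS2 2.2.6, and peaks were called in each replicate on its own. The MACS2 settings and the handling of duplicate reads are not given in the sources used here. For each peak the authors deposited a score, the fold enrichment over the caller's background, which is a ratio, a −log10 p-value and a −log10 q-value. In 100% of peaks, 10 times the −log10 q without its decimals gave the deposited score, and score and fold enrichment ordered peaks alike. The lowest −log10 q was 2.24 and 2.07. No peak passed a chromosome end of hg38 (0 peaks), the build used for coordinates and for GENCODE 44.

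Height was computed as fold enrichment divided by its step, less 1, and the fold enrichments were whole multiples of the step to within 8.13e-05 of a step. Genes were placed by their most 5′ TSS, and every TSS counted for distance. The arms of chromosome 8 were parted at 45 Mb. Boundaries needed at least 10 genes with a peak on each side. A peak of a long noncoding RNA gene had to lie within 1 kb of its TSS. No test was run and no count model fitted, as members were selected on height and bins and genes are not replicates.

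The members, lists and settings were chosen with earlier results of these data known. Named genes are the 5 highest and 5 lowest of each arm, 3 on each side of each boundary, and 47 genes known from breast cancer, unless stated otherwise. A further gene of that list and a blood marker are not reported here. Functions were tested on simulated data. Alternatives covered distances, TSS choice, peak thresholds, score in place of height, bins and the omission of each replicate. The alternative worded as a score in column 5 used the score, which is in the column before it. Scripts ran in Python 3.11.15 with matplotlib 3.10.9, numpy 2.4.6 and scipy 1.17.1. No sequence is shown.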

Additional observations from a re-analysis of the deposited data

How the results depend on the processing

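Of 128 alternatives over 9 results, 73 left the value within the spread between replicates or, for counts, within 1.5 times, 52 moved it further and 3 reversed its sign. The cause was not tested. The median height (267.5) was 285.75 within 100 bp of a TSS, 341.75 with the 50000 strongest peaks, 236 with each peak counted once, 301.5 with CpG-rich promoters, and 3917 as a score, another scale. The ratio to other autosomes (1.16) was 1.205 within 100 bp, 1.22 with the most 5′ TSS only, 1.17 at a −log10 q of at least 10, 1.207 with the 50000 strongest peaks, 1.206 by score, 1.11 with each peak counted once and 1.186 with CpG-rich promoters. The 8q over 8p ratio (2.201) was 1.64 with the 50000 strongest peaks, 2.80 by score and 1.98 with each peak counted once. The outer over inner 8p ratio (0.438) was 0.362 within 100 bp, 0.340 by score, 0.299 with CpG-rich promoters and 0.634 with 10 Mb bins, where the edge fell at 30 Mb. With bins starting at 2.5 Mb the edge fell at 37.5 Mb.

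The outer over inner 8q ratio (1.40) was 1.534 within 100 bp, 1.565 at a −log10 q of at least 10 and 1.572 with the 50000 strongest peaks (edge at 65 Mb for these 3), 1.626 within 3 kb, 1.536 by score, 1.357 with each peak counted once (edge at 120 Mb), 1.604 with CpG-rich promoters, 1.449 with 2.5 Mb bins and with bins starting at 2.5 Mb (edge at 122.5 Mb), and 1.80 between genes. The 12 high or low bins were 5 with 10 Mb bins, which are fewer in number. Within the limit of 1.5 times for counts, they still ranged from 8 with the 50000 strongest peaks to 18 by score. The 5 steps were 3 at a −log10 q of at least 10, 2 with 10 Mb bins, 9 with bins starting at 2.5 Mb and 2 with at least 10 genes per bin.

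The mean correlation of height with peak count (0.622) was 0.581 within 100 bp, 0.733 within 3 kb, 0.495 with the most 5′ TSS only, 0.570 with the 50000 strongest peaks, 0.551 with 2.5 Mb bins, 0.527 with 10 Mb bins, 0.433 with bins starting at 2.5 Mb, 0.495 with at least 10 genes per bin and 0.675 for distal peaks. The mean correlation with median distal height (−0.229) was −0.330 within 100 bp, −0.277 within 3 kb, −0.275 for genes with a peak in both replicates, −0.327 with CpG-rich promoters, −0.164 with 2.5 Mb bins, −0.264 with 10 Mb bins and −0.400 with at least 10 genes per bin. It turned positive at a −log10 q of at least 10 (0.191) and with the 50000 strongest peaks (0.589). Alternatives chosen after seeing the data were the 90th percentile of distal height (0.544), the count of distal peaks of height 100 or more (0.633), and the omission of the bin from 140 Mb, which gave 0.582 with peak count and −0.150 with distal height.

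Leaving out each replicate gave 256 to 279 for the median height, 1.14 to 1.17 against other autosomes, 2.09 to 2.32 for 8q over 8p, 0.390 to 0.486 on 8p, 1.38 to 1.43 on 8q, 13 to 15 high or low bins, 6 steps each, and 0.594 to 0.650 and −0.243 to −0.214 for the correlations. No paired analysis was possible because the replicates form 1 group. Only peaks over the calling threshold are listed, so that genes without a peak do not enter the medians. Summits are not in the lists, and the depth of the libraries does not follow from them.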
